A study of Mus musculus with 6 samples.

Results

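The F1 sector is the catalytic head of ATP synthase, complex V (CV) of the mitochondrial respiratory chain, and its 5 subunits are encoded by Atp5a1, Atp5b, Atp5c1, Atp5d and Atp5e. These 5 genes were taken by name out of 26294 genes in a table of normalised read counts, and all 5 were present. The values came from RNA-seq of calf muscle of aged male C57BL/6 mice, 24 to 26 months old, killed after 5 to 6 months on their diet. The RD group ate a regular diet, the HF group a high-fat diet, and the HF.NOB group the high-fat diet with 0.1% Nobiletin (NOB), a flavonoid of citrus peel known as an activator of the RORs, nuclear receptors of the circadian clock. Each diet was sampled at ZT6, in the light and resting phase, and at ZT18, in the dark and active phase, ZT being hours after lights on. Every diet and time point had 1 column of values, 6 in all, called a library below, so no condition had a replicate and a difference between conditions is a ratio of single libraries with no test. A heat map of respiratory chain genes from the RNA-seq is captioned n = 3 and the deposited sheet is titled as mean results, so a column may stand for several animals, but no replicate values were among the files used here. Animal, library and condition therefore cannot be told apart.

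ATP synthase couples the flow of protons back across the inner mitochondrial membrane to the making of ATP. Protons pass through the membrane part, Fo, and turn a ring of c subunits with the central stalk, and the turning stalk drives the catalytic sites of F1 through their cycle. The alpha subunit (Atp5a1) and the beta subunit (Atp5b) alternate in a ring, with the catalytic sites mainly on beta, while gamma (Atp5c1) is the shaft inside it and delta (Atp5d) and epsilon (Atp5e) form the foot that rests on the c ring. An assembled F1 holds 3 copies each of alpha and beta and 1 copy each of gamma, delta and epsilon. All 5 are encoded in the nucleus and imported. Skeletal muscle, which draws on oxidative phosphorylation during sustained work, is rich in the complex. The study asked whether NOB, through the RORs, bears on respiratory chain genes of old muscle, and it followed Atp5b and Atp5d as genes held to be ROR targets. From earlier binding studies it describes ROR elements in both promoters, occupied by RORα and RORγ. It reports both genes as lower in HF than in RD and as raised by NOB.

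The promoters are shown here because 2 of these genes were followed as targets of a transcription factor and because all 5 genes were highest in the same library. The 250 bases ahead of the RefSeq start are printed 5′ to 3′ on the strand of the gene, from GRCm38.p6, for Atp5b (chr10:128083057-128083306, plus strand), for the downstream of the 2 starts of Atp5d (chr10:80142065-80142314, plus strand) and for Atp5e (chr2:174464102-174464351, minus strand). Capitals mark CCAAT boxes (CCAAT, or ATTGG on the other strand), GC boxes (GGGCGG or CCGCCC) and the 9 letters CCCAGAATG.
Atp5b: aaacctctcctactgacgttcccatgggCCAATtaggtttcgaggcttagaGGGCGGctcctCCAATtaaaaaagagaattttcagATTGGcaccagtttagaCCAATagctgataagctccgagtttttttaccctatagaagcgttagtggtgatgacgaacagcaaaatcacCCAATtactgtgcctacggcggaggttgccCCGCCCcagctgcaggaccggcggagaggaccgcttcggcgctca
Atp5d: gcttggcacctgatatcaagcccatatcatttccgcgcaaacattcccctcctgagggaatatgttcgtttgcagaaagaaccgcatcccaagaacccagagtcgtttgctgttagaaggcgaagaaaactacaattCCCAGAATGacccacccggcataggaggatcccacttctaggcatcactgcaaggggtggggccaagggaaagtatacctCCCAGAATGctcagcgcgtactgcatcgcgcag
Atp5e: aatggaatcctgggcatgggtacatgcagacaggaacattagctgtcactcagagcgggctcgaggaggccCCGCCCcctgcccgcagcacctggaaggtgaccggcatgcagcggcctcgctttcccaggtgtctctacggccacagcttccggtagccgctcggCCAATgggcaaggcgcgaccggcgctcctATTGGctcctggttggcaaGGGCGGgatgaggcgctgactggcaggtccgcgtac

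The 3 windows were built differently. Atp5b held 5 CCAAT boxes and 2 GC boxes, and 5 or more CCAAT boxes were found in 0.213% of 32851 mouse windows of this length, against 33.8% with at least 1. Atp5e held 2 CCAAT boxes (10.1% of windows had 2 or more) and 2 GC boxes (16.7% had 2 or more). Atp5d held neither, but CCCAGAATG occurred in it 2 times on the plus strand, starting at -113 and at -33 from the RefSeq start. That motif was chosen after the sequences were seen, and 0.554% of windows held it at least 1 time and 0.0122% 2 or more times. Both windows of Atp5c1, which overlap, held the same 1 CCAAT box. The core letters of ROR elements, AGGTCA, were sought on both strands and occur in 14.0% of all windows, and the E-box CACGTG, read by CLOCK and BMAL1, in 6.02%. Neither word was in a window of Atp5b, Atp5c1, Atp5d or Atp5e, which says only that these letters are not in these 250 bases. Looser forms of the element and sequence outside the windows were not searched, and no window of Atp5a1 was available to search. A match is a run of letters, not a site shown to be bound.

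The 5 genes lay at these places in GENCODE M21 on GRCm38. Atp5a1 (ENSMUSG00000025428.14) spanned chr18:77773729-77782869 on the plus strand and Atp5b (ENSMUSG00000025393.11) chr10:128083273-128090391 on the plus strand. Atp5c1 (ENSMUSG00000025781.13) spanned chr2:10056016-10080510 on the minus strand, Atp5d (ENSMUSG00000003072.14) chr10:80138632-80145818 on the plus strand and Atp5e (ENSMUSG00000016252.7) chr2:174461072-174464105 on the minus strand. Their messages differ in length, and this matters below: the shortest principal transcript (APPRIS, the annotation's choice of the main protein-coding form) is 2471 nt for Atp5a1, 1916 nt for Atp5b, 1166 nt for Atp5c1, 931 nt for Atp5d and 421 nt for Atp5e. The longest annotated transcripts are 2674, 1916, 1735, 1410 and 1697 nt in the same order, and that of Atp5e is a form with a retained intron. Gm4707, a processed pseudogene 90.9% identical to Atp5b over 716 nt, reached a value of only 2.67. Atp5c1 has 2 processed pseudogenes, Gm8722 (95.7% identical over 626 nt) and Atp5c1-ps (90.7% over 913 nt). Neither had values, so reads on them could not be looked at. Protein-coding genes lie over 2 of the loci. Haus1 overlaps Atp5a1 by 158 bases (mean value 272) and Cbarp overlaps Atp5d by 2204 bases (mean value 34.7), both on the opposite strand. Strand use in counting is not stated. Small RNA genes lie within Atp5b and Atp5c1 on the same strand, and those in the table had mean values of 0.981 (Snord59a), 4.44 (Mir677) and 2.76 (Gm23608).

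Libraries held 23248663 to 31837501 reads on genes, and 1 read was worth 0.956 to 1.33 units of the deposited value. All 11 skeletal fibre markers were present in every library, with a summed value of 3691560 to 4807730. The sum was highest in HF.NOB at ZT6, where 7 of the 11 had their highest value and Myh1, Myh2, Myh4 and Myh7, the myosin heavy chains with long messages, were not among them. Lists of other cell types stood apart in 2 libraries. In the HF.NOB library at ZT6, 6 adipocyte markers summed to 5536 against 1324 to 3088 elsewhere (5 of 6 highest there), 5 red blood cell markers to 14519 against 1575 to 5429 (5 of 5) and 5 neutrophil markers to 532 against 26.8 to 317 (3 of 5). Also highest there were the macrophage and leukocyte sum (2910, 2 of 6 markers) and the fibroblast sum (19097, 1 of 4). The heart muscle sum (288, 2 of 4) was highest there too, and the endothelium sum (5082) was lowest there. Of the macrophage and leukocyte and the fibroblast markers, only C1qa, C1qb and Dcn were above HF at ZT6. In the HF library at ZT18, 9 liver markers summed to 1726 against 2.67 to 13.3 elsewhere. In bulk muscle, fewer cells of a type and less RNA per cell cannot be told apart. The HF.NOB library at ZT6 also differed by transcript length in the 3 comparisons made with it. Over 11116 genes whose mean reached 50, the log2 fold at ZT6 between HF.NOB and HF was lower for longer messages (Spearman's rho -0.71 with the shortest APPRIS transcript, across genes, which are not independent). In the 6 comparisons without that library, rho lay between 0.0054 and 0.104.

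All 5 F1 transcripts were abundant and at their highest in the HF.NOB library at ZT6. They made up 0.520%, 0.597% and 0.746% of all reads on genes at ZT6 in the RD, HF and HF.NOB libraries, and 0.527%, 0.644% and 0.567% at ZT18. By mean value, Atp5b ranked 41 and Atp5a1 46 of 26294 genes, Atp5c1 172, Atp5e 377 and Atp5d 410. These ranks are not corrected for length.

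Atp5b, the catalytic beta subunit, had normalised read counts, in the order RD, HF, HF.NOB, of 70860, 77775 and 96722 at ZT6 and of 69488, 80793 and 75747 at ZT18. Atp5a1, the alpha subunit, had 63904, 70876 and 83213 at ZT6 and 61572, 73103 and 67859 at ZT18. For both, the HF.NOB library at ZT6 was the highest, HF stood above RD at both times, and HF.NOB at ZT18 lay between RD and HF. Atp5c1, the gamma shaft, had 15661, 15565 and 22522 at ZT6 and 13954, 15501 and 15222 at ZT18. RD and HF were level at ZT6, and only the HF.NOB library at that time stood clear of the other 5.

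Atp5d, the delta subunit of the foot, had 6461, 7181 and 12782 at ZT6 and 6471, 7561 and 6879 at ZT18. Atp5e, the epsilon subunit, had 7377, 7279 and 16010 at ZT6 and 6375, 7004 and 6815 at ZT18. In both genes the HF.NOB library at ZT6 stood far above a narrow band of the other 5. Its ratio to the next highest library was 1.14 for Atp5a1, 1.20 for Atp5b, 1.44 for Atp5c1, 1.69 for Atp5d and 2.17 for Atp5e, the order of falling principal transcript length. Without that library the coefficient of variation over the other 5 was 4.64% (Atp5c1) to 7.07% (Atp5a1). Of 20311 genes whose mean reached 1, 32.5% were also highest in HF.NOB at ZT6.

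**Figure D1:**
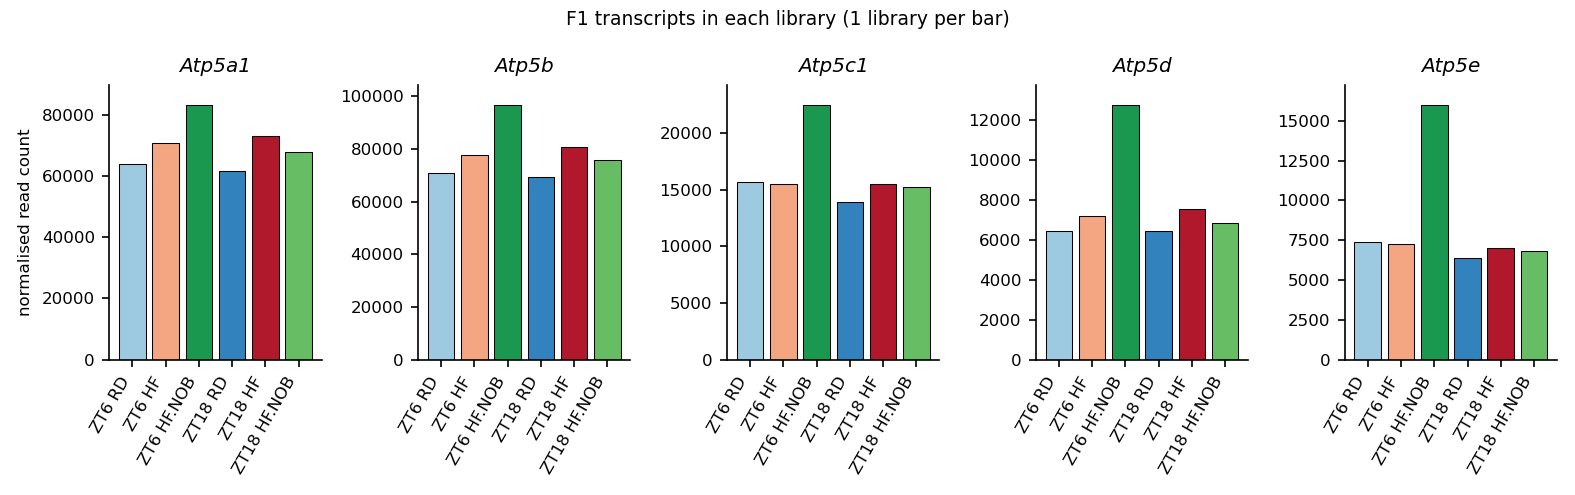
Normalised read counts of the 5 F1 genes (vertical axes, each from 0) in the 6 libraries, 1 bar per library and no error bar since no condition was replicated. The HF.NOB library at ZT6 is the highest bar in each panel, by 1.14 times the next library for Atp5a1 and by 2.17 times for Atp5e.

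Against HF at the same time, NOB went with higher F1 transcripts at ZT6. The log2 fold, of values with 1 added, was 0.23 for Atp5a1, 0.31 for Atp5b, 0.53 for Atp5c1, 0.83 for Atp5d and 1.14 for Atp5e. The 95% counting intervals, which cover counting error only, were 0.22 to 0.25 for Atp5a1 and 1.10 to 1.18 for Atp5e, narrow against the spread of folds among the 5 genes. The fold was at least 1.5 for 2 of the 5, Atp5d and Atp5e, in a comparison where 20.9% of all genes were 1.5-fold higher and 22.4% 1.5-fold lower. The median log2 fold of all 20311 genes was 0.0028.

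Genes of like message length differed in the same direction. Among the 200 genes nearest to each in length of the shortest APPRIS transcript, the median log2 fold was 0.12 for Atp5a1, 0.30 for Atp5b, 0.62 for Atp5c1, 0.75 for Atp5d and 0.91 for Atp5e. Of these 200, 66 were above Atp5a1 in fold, 94 above Atp5b, 124 above Atp5c1, 72 above Atp5d and 26 above Atp5e. A fold of 1.5 or more was reached by 138 of the 200 genes around Atp5d and by 165 of those around Atp5e.

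The median fold of genes of similar length was then subtracted in 50 bins. With the longest annotated transcript, the log2 folds from Atp5a1 to Atp5e were 0.0026, -0.09, 0.05, 0.24 and 0.65, and 1 of 5 was past 1.5-fold, Atp5e, whose longest form is the retained intron (11.2% of genes were higher and 21.5% lower on that scale). With the shortest APPRIS transcript, a length chosen after the values were seen, they were 0.11, 0.0082, -0.09, 0.09 and 0.23, and 0 of 5 passed (9.66% of genes higher, 14.5% lower). With the longest APPRIS transcript, also chosen later, Atp5d kept 0.29 and Atp5e 0.24, so the gene with the largest remainder depended on the length. The sums of all marker lists but liver and endothelium were also highest in the HF.NOB library at ZT6, without adjustment for length. Only 2 of 6 macrophage and leukocyte markers and 1 of 4 fibroblast markers, though, were above HF at ZT6. The part of other cell types in these folds was not tested.

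**Figure D2:**
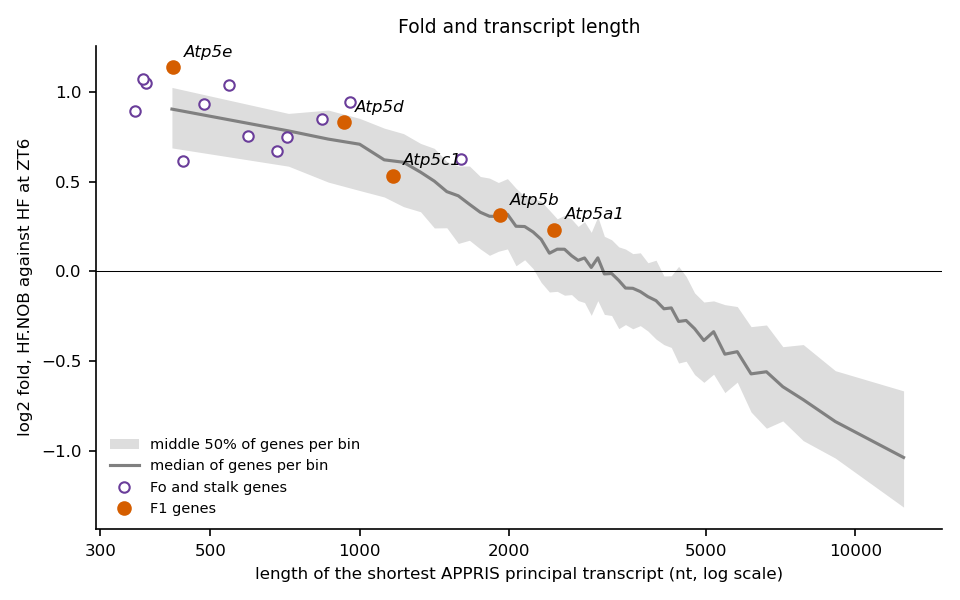
Log2 fold at ZT6 between HF.NOB and HF (vertical axis) against the length of the shortest APPRIS principal transcript (log axis, nt) for the 5 F1 genes (filled), the 12 Fo and stalk genes (open) and the median and middle 50% of other genes in 50 bins of length. The F1 genes follow the slope of the other genes, from 0.23 for Atp5a1 at 2471 nt to 1.14 for Atp5e at 421 nt, where the median of the bin is 0.90 and its upper quartile 1.03.

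At ZT18 the same comparison had the opposite sign and was small, under all 5 scalings of the libraries. HF.NOB against HF was -0.11 for Atp5a1, -0.09 for Atp5b, -0.03 for Atp5c1, -0.14 for Atp5d and -0.04 for Atp5e on the log2 scale. The counting intervals of Atp5c1 (-0.06 to 0.01) and Atp5e (-0.09 to 0.01) spanned 0, so for these a difference was not detectable at this depth. None of the 5 passed 1.5-fold (9.47% of all genes were higher and 12.5% lower). All 5 were above 0 at ZT6 and below 0 at ZT18, and 25.2% of all genes did the same.

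Between HF and RD the F1 transcripts differed little, with HF above RD for all 5 genes at ZT18 and for 3 at ZT6. At ZT18, HF against RD was 0.25 for Atp5a1, 0.22 for Atp5b, 0.15 for Atp5c1, 0.22 for Atp5d and 0.14 for Atp5e on the log2 scale, all 5 above 0 with counting intervals that left out 0. The nearest 200 genes by length had medians of -0.05 to 0.02 there, and 30 (Atp5d) to 53 (Atp5e) of the 200 were above the F1 gene in fold. At ZT6, HF against RD was 0.15 for Atp5a1, 0.13 for Atp5b and 0.15 for Atp5d. Atp5c1 was at -0.0089 and Atp5e at -0.02, with signs that turned between scalings of the libraries (-0.02 to 0.04 and -0.03 to 0.03). No F1 gene passed 1.5-fold at either time, where 12.3% of genes were higher and 11.6% lower at ZT6 and 15.7% higher and 11.9% lower at ZT18. HF was above RD at both times for 3 of the 5, Atp5a1, Atp5b and Atp5d, and for 29.0% of all genes. For Atp5b and Atp5d the study reports the opposite direction, lower in HF than in RD, shown apart from its RNA-seq heat map with more samples per group. From the heat map it reports slightly higher levels of some respiratory chain genes in HF than in RD at ZT18. Its text does not say whether F1 genes were among them.

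At ZT18 all 5 genes kept 1 order of diets, RD lowest, HF.NOB next and HF highest. HF.NOB against RD was 0.14, 0.12, 0.12, 0.09 and 0.10 from Atp5a1 to Atp5e, with every counting interval above 0. The order was noticed after the values were seen, and 21.7% of all genes share it. Under each of the 5 scalings (as deposited and 4 others), HF.NOB at ZT18 stayed above RD and below HF for all 5 genes. The comparisons with RD and with HF share libraries, and the HF library at ZT18 is the one with liver transcripts, whose part was not tested. Against RD at ZT6, HF.NOB stood at 0.38, 0.45, 0.52, 0.98 and 1.12, with 2 of 5 past 1.5-fold (21.8% of genes higher, 23.0% lower), and with 0 of 5 after subtraction of the median of genes of similar length (shortest APPRIS transcript, 12.1% of genes higher, 14.2% lower). At ZT18, 0 of 5 passed against RD (11.5% higher, 11.0% lower).

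**Figure D3:**
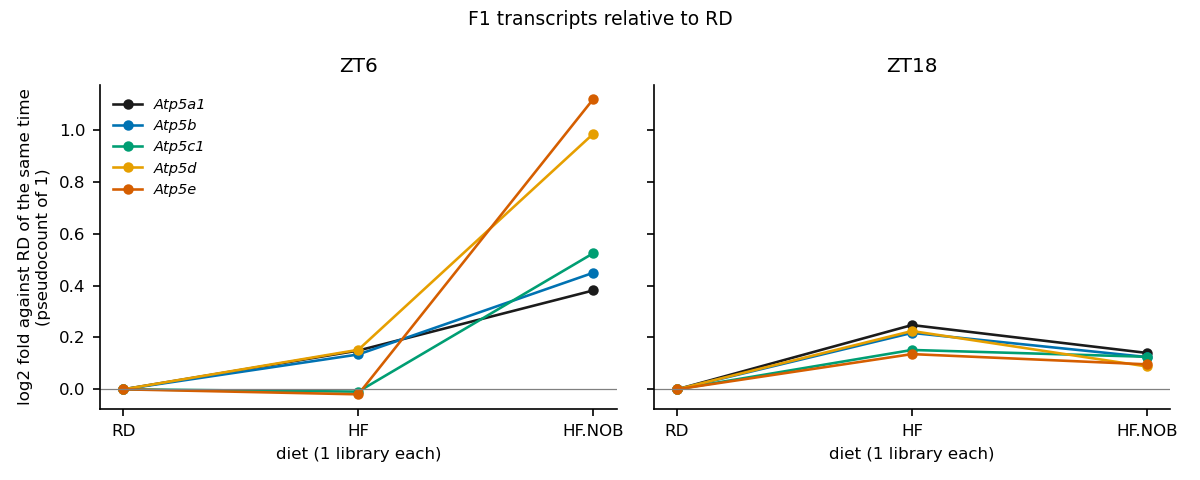
Log2 fold of each F1 gene against RD of the same time (vertical axis) by diet, at ZT6 (left) and ZT18 (right), with 1 library per point and lines that only join the points of a gene. At ZT6 the HF.NOB points fan out from 0.38 to 1.12, while at ZT18 all 5 genes peak in HF at 0.14 to 0.25.

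Differences between the times were small in RD and HF. From ZT6 to ZT18, Atp5e differed by -0.21 and Atp5c1 by -0.17 in RD, where Atp5a1 was at -0.05, and Atp5b and Atp5d, at -0.03 and 0.0021, turned sign between scalings. In HF the 5 genes lay between -0.06 (Atp5e) and 0.07 (Atp5d), and Atp5c1, at -0.0059, turned sign between scalings. No gene passed 1.5-fold in either diet (11.3% of genes higher and 12.2% lower in RD, 12.2% and 10.2% in HF). In HF.NOB all 5 were lower at ZT18, at log2 folds of -0.29, -0.35, -0.57, -0.89 and -1.23, and 2 of 5 passed 1.5-fold, with 21.4% of genes lower and 23.4% higher. After the subtraction by length (shortest APPRIS transcript), these became -0.17, -0.02, 0.07, -0.17 and -0.29, and 0 of 5 passed (11.1% of genes lower, 14.3% higher).

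**Figure D4:**
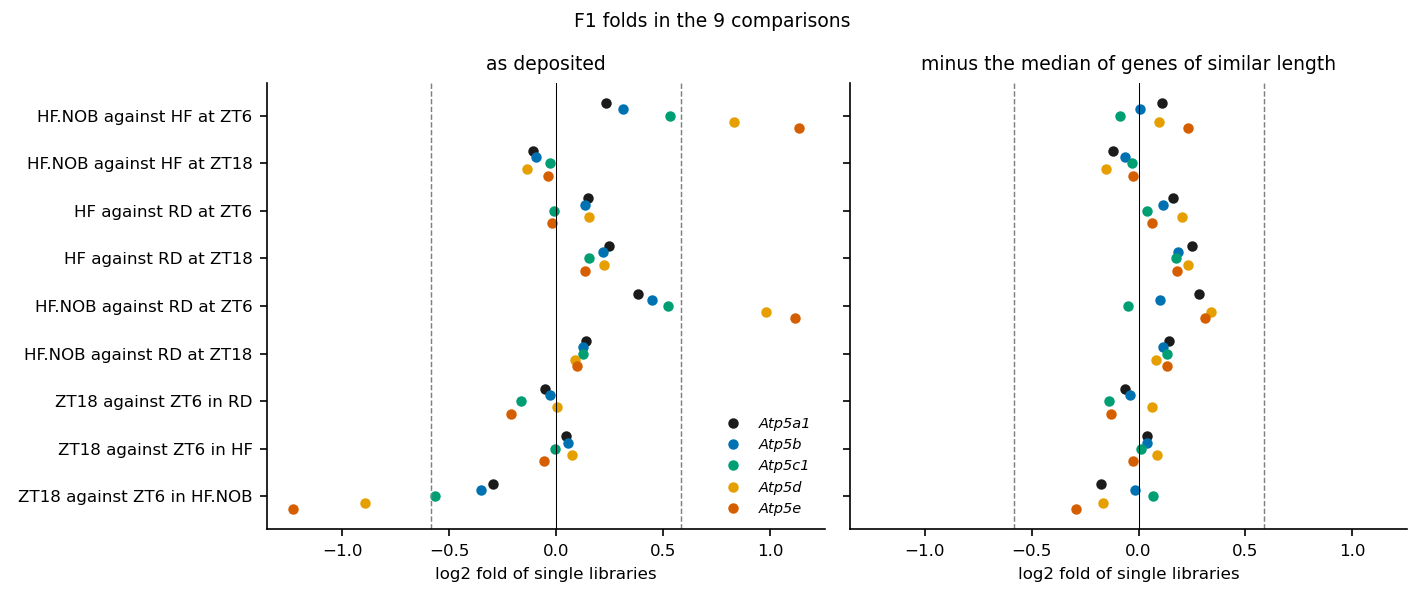
Log2 folds of the 5 F1 genes (horizontal axis, coloured points) in the 9 comparisons of single libraries, as deposited (left) and after the median fold of genes of similar length (shortest APPRIS transcript) was subtracted (right), with dashed lines at 1.5-fold. Points pass the lines only on the left and only where the HF.NOB library at ZT6 takes part.

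A fit that lets each time point stand in as a replicate of a diet gave no call among the 5. Its diet effect averages both times, and a fold that differs between the times adds to its residual. The fit therefore cannot decide whether HF.NOB differs from HF at 1 time only. In edgeR's quasi-likelihood test with diet and time as additive terms on all 6 libraries, HF.NOB against HF was 0.03 ± 0.20 (log2, SE) for Atp5a1 with an adjusted p of 0.957 and 0.55 ± 0.31 for Atp5e with an adjusted p of 0.760. That fit called 0 of 14597 genes for this effect (0% either way), with 352 (2.41%) at an unadjusted p under 0.05, and 0 of the 5 F1 genes were among these. On the 4 RD and HF libraries alone, with 1 residual degree of freedom, HF against RD was 0.21 ± 0.10 for Atp5a1 and 0.20 ± 0.08 for Atp5d, with adjusted p of 0.220 and 0.130 from edgeR over all genes. Atp5b, Atp5c1 and Atp5e were at 0.18, 0.08 and 0.07. In that fit 5.05% of genes were called higher and 4.14% lower, none of them an F1 gene, although Atp5a1 and Atp5d were the 2 of 5 with an unadjusted p under 0.05 (0.0496 and 0.021), where 22.6% of all genes were under it.

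The ratios of the 5 transcripts to each other were steadier in 5 libraries than with the HF.NOB library at ZT6. The ratio of Atp5a1 to Atp5b was 0.902 and 0.911 at ZT6 in RD and HF, 0.886, 0.905 and 0.896 at ZT18 in RD, HF and HF.NOB, and 0.860 at ZT6 in HF.NOB. The ratio of Atp5b to Atp5d was 10.7 to 11.0 in the 5 libraries and 7.57 in HF.NOB at ZT6. Atp5b to Atp5e was 9.61 to 11.5 and 6.04, and Atp5c1 to Atp5d was 2.05 to 2.42 and 1.76. In all 10 pairs the longer message (by shortest APPRIS transcript) had its lowest share against the shorter one in HF.NOB at ZT6. The tightest of the 10 was Atp5a1 to Atp5b, which spread 1.03-fold over the 5 libraries, and the widest was Atp5d to Atp5e at 1.23-fold.

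Set against the 3 to 1 make-up of the protein, levels per kilobase and per copy depended on the length assumed. Divided by the longest annotated transcript and by copies in F1, and set to Atp5b as 1, the medians over libraries were 0.644 for Atp5a1, 0.666 for Atp5c1, 0.378 for Atp5d and 0.314 for Atp5e. With the shortest APPRIS transcript, chosen after the values were seen, they were 0.697, 0.990, 0.572 and 1.27, so Atp5e moved from the lowest to the highest. With merged exons they were 1.21, 1.34, 0.611 and 0.671. Atp5d, the delta subunit, was the gene below Atp5b under all 4 lengths tried.

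Levels per kilobase, not per copy, gave this order with the shortest APPRIS transcript. The median normalised read count per kilobase was 40063 for Atp5b (36267 to 50481 over libraries), 28073 for Atp5a1 (24918 to 33676), 16963 for Atp5e (15142 to 38028), 13322 for Atp5c1 (11968 to 19315) and 7551 for Atp5d (6940 to 13730). Atp5b stood clear of Atp5a1, while the ranges of Atp5a1 and Atp5e, of Atp5e and Atp5c1, and of Atp5c1 and Atp5d overlapped. These overlaps came from the HF.NOB library at ZT6. Over the other 5 libraries Atp5a1 spanned 24918 to 29584, Atp5e 15142 to 17522, Atp5c1 11968 to 13432 and Atp5d 6940 to 8122, with no overlap. With the longest annotated transcript the last 3 medians were 8953 for Atp5c1, 4986 for Atp5d and 4208 for Atp5e. With merged exons Atp5a1, at a median of 22127, stood above Atp5b, at 18117, with overlapping ranges, so both the top and the bottom of the order depended on the length.

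**Figure D5:**
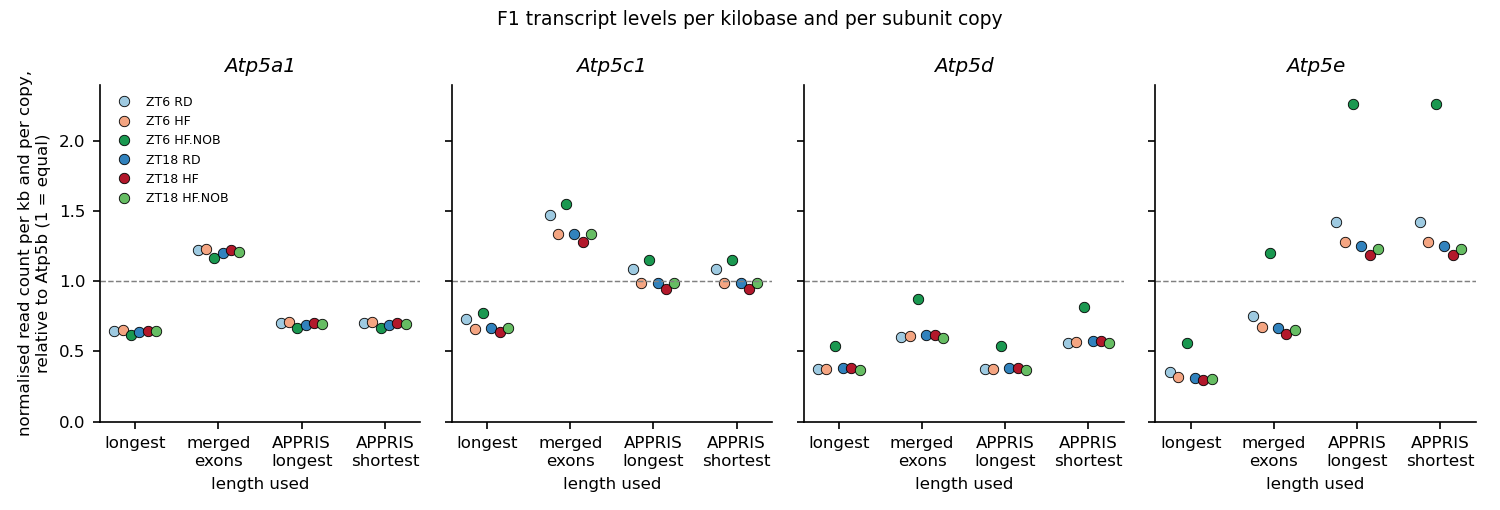
Normalised read count per kilobase and per subunit copy relative to Atp5b (vertical axis, 1 is equal to Atp5b) for the other 4 genes under 4 definitions of length (horizontal axis), with 1 point per library. The definition of length moves Atp5e from a median of 0.314 to 1.27, and within each definition the HF.NOB library at ZT6 stands above the rest for Atp5d and Atp5e.

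In the HF.NOB library at ZT6 these relative levels left the range of the other 5 for all 4 genes. On the shortest APPRIS length Atp5d was at 0.816 against 0.561 to 0.578 and Atp5e at 2.26 against 1.18 to 1.42. Atp5c1 was at 1.15 against 0.946 to 1.09, and Atp5a1, the gene with the longest message, at 0.667 against 0.687 to 0.707. The choice of length cancels within a gene, so these shifts between libraries are the same under every definition.

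The genes with the most similar profiles were found by Euclidean distance between centred log2 values over the 6 libraries, among 11031 other genes. Distances are a description over 6 libraries, in which the HF.NOB library at ZT6 differed most. For Atp5b they were Dld, a subunit of the pyruvate dehydrogenase complex (0.063), Atp5a1 (0.067) and Yars2, the mitochondrial tyrosyl-tRNA synthetase (0.070). For Atp5a1 they were Sdcbp, Immt and Gas8, with Immt an organiser of mitochondrial cristae, and Atp5b came at rank 5. For Atp5c1 they were Tmem134, Siah1b and Mmadhc, and Atp5b was at rank 666. Atp5d was nearest to Mpc2, part of the mitochondrial pyruvate carrier (0.066), Chchd10 (0.071) and Wdr83, and Atp5e to Ndufa2, a complex I subunit (0.112), Nhp2 and Atp5mpl, with Atp5d at rank 185. The neighbours with a principal transcript in the annotation had 2086, 2728 and 1681 nt for Atp5a1, 1025, 939 and 1238 nt for Atp5d and 572, 1042 and 366 nt for Atp5e. Those of Atp5b had 2544, 2471 and 1574 nt and those of Atp5c1 1712 and 1342 nt.

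The other CV subunits encoded in the nucleus also had their highest values in HF.NOB at ZT6, 12 of 12 genes, against 32.5% of all genes. The list of Fo and stalk genes held the c subunit genes Atp5g1, Atp5g2 and Atp5g3, the peripheral stalk genes Atp5f1, Atp5h, Atp5j and Atp5o, and the small membrane subunits Atp5j2, Atp5k, Atp5l, Atp5md and Atp5mpl. At ZT6, all 12 were at least 1.5-fold higher in HF.NOB than in HF, against 20.9% of all genes. Their median log2 fold was 0.87 against 0.53 for F1, from 0.62 for Atp5g2 to 1.07 for Atp5mpl. Their shortest APPRIS transcripts of 352 to 1604 nt are on the whole shorter than those of F1. After subtraction of the median of genes of similar length (shortest APPRIS transcript), 0 of 12 passed (9.66% of all genes were higher) and the median was 0.07, against 0.09 for F1. With the longest annotated transcripts 4 of 12 passed (11.2% of all genes), with a median of 0.18.

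Atp5g1, a c subunit gene, had 9483, 10126 and 17078 at ZT6 and 8559, 10508 and 9592 at ZT18. Atp5o, the stalk subunit that caps F1, had 10820, 10121 and 18270 at ZT6 and 9228, 10006 and 9628 at ZT18. These follow the F1 pattern, with HF.NOB at ZT6 the highest and RD lowest at ZT18. The order RD, HF.NOB, HF at ZT18 was shared by 11 of 12, against 21.7% of all genes. The exception was Atp5g2, which had 3388 in RD, 3150 in HF.NOB and 2975 in HF. At ZT18, HF against RD had a median of 0.27 over the 12 against 0.22 over F1, and HF.NOB against HF a median of -0.11 against -0.09.

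Of the 2 subunits encoded in mitochondrial DNA, mt-Atp8 had the opposite pattern to F1 at ZT6. mt-Atp8 had 44413, 46298 and 27754 at ZT6 and 35309, 44085 and 42156 at ZT18, so that HF.NOB at ZT6 was its lowest library, at a log2 fold of -0.74 against HF. mt-Atp6, which forms the proton channel with the c ring, had only 388, 448 and 631 at ZT6 and 303, 497 and 425 at ZT18, highest where mt-Atp8 was lowest. The reading frames overlap by 43 bases and are carried on 1 message, and how reads in the overlap were assigned is not stated, so the split between them is uncertain. The overlap covers only 43 of the 681 bases of mt-Atp6. The next gene, mt-Co3, also had a low mean value (63.6). Why the values of mt-Atp6 and mt-Co3 were low was not tested, so they may not reflect transcript levels.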

How the data were processed

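RNA-seq was analysed in 6 libraries of calf muscle, 1 for each of 3 diets and 2 times. The authors aligned the reads with TopHat2 2.0.12 to mm10 and give Cufflinks 2.2.1 for gene abundance (both tools are in the submitters' processing notes). The deposited signal is named as a read count. 100% of its values were whole multiples, within 0.001, of the value of 1 read in their column, so it holds read counts times 1 factor per column. Which counter was used, and which tool set the factors, is not given in the sources used here. Its sheet name speaks of mean results, and the table had 0 columns of other samples. 1460 genes had no read.

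IDs were joined without version to GENCODE M21 (99.4% matched). Log2 folds were taken from the deposited values after a pseudocount of 1, over the 20311 genes whose mean reached 1, and genes were counted at 1.5-fold. Intervals are exact 95% intervals of the ratio of both read counts. Counting error is all they cover: without molecular identifiers, reads are not independent molecules. The length adjustment was fitted on genes outside the CV lists whose mean reached 50. These were 11693 for the longest transcript and 11116 for the APPRIS lengths. Promoters came from RefSeq, and pseudogenes were found with BLAST 2.17.0. The reads recovered in this way entered the edgeR fits. The SE given with a fitted effect was calculated back, as the size of the log2 effect divided by the square root of its F statistic. P-values of these fits rest on how far the differences between diets vary from 1 time to the other, not on a spread between animals. edgeR shares that variation over genes, so a p-value does not rest on the gene's own variation alone. A heat map of the RNA-seq is captioned n = 3, but the labels do not say whether a column is 1 animal, a pool or a mean. Genes named are the 5 members, the other CV, assembly and carrier genes, the 3 nearest profiles of each member and near-identical copies. The members and lists were chosen with earlier results of these data known. Alternatives were 4 other scalings, pseudocounts of 0.1 and 5, a minimum mean of 10 or none, other lengths, GC content and the edgeR fits. The plan allowed for counts or Cufflinks values, and the scaled counts were used as deposited. Steps were tested on simulated data. The fits ran in edgeR 4.0.16 under R 4.3.3, and the rest in Python 3.11.15 with pandas 2.3.3, SciPy 1.17.1, NumPy 2.4.6 and Matplotlib 3.10.9.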

Additional observations from a re-analysis of the deposited data

Results flagged for a closer look

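The log2 fold of HF.NOB against HF had opposite signs at the 2 times for each F1 gene, and the difference between the times, ZT6 minus ZT18, was 0.34 for Atp5a1, 0.41 for Atp5b, 0.56 for Atp5c1, 0.97 for Atp5d and 1.18 for Atp5e. With 1 library per condition this difference was not tested. After the median fold of genes of similar length (shortest APPRIS transcript) was subtracted, it was 0.23 for Atp5a1, 0.07 for Atp5b, -0.06 for Atp5c1, 0.25 for Atp5d and 0.26 for Atp5e. All 5 values rest on the HF.NOB library at ZT6.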

How the results depend on the processing

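Of the counts of F1 genes past 1.5-fold, the relative levels and the length correlation, 99 values under alternatives were like the main ones, 23 moved and 0 reversed. The counts moved only where the HF.NOB library at ZT6 took part and only under length adjustment. For HF.NOB against HF at ZT6, HF.NOB against RD at ZT6 and ZT18 against ZT6 in HF.NOB, each count of 2 became 1 with the longest transcript, 1 with the longest transcript and GC content, 0 with the longest APPRIS transcript and 0 with the shortest, the last 2 chosen after seeing the data. The 6 other counts were 0 under every alternative. Levels per kilobase and copy relative to Atp5b, 0.644 for Atp5a1, 0.666 for Atp5c1, 0.378 for Atp5d and 0.314 for Atp5e with the longest transcript, became 1.21, 1.34, 0.611 and 0.671 with merged exons, and 0.697, 0.990, 0.572 and 1.27 with the shortest APPRIS transcript. With the longest APPRIS transcript they were 0.697, 0.990, 0.378 and 1.27. At ZT6 the fold between HF.NOB and HF correlated with length at a Spearman's rho of -0.73 with the longest transcript, -0.71 with the shortest APPRIS transcript and -0.78 with a minimum mean of 500. Over all genes, the calls at 1.5-fold in the 9 comparisons, 4463 to 9105, became 1250 to 5412 with a minimum mean of 10, 2311 to 7127 with a pseudocount of 5, 6694 to 11233 without a filter, and 2391 to 4009 and 2395 to 4108 with the longest and shortest APPRIS lengths, which fewer genes have. Length adjustment with the longest transcript moved the share of calls that were higher from 48.3% to 34.3% in HF.NOB against HF at ZT6, from 48.6% to 37.2% in HF.NOB against RD at ZT6 and from 52.2% to 64.0% in ZT18 against ZT6 in HF.NOB. No paired analysis was possible because each condition has 1 library and so no replicate number to pair by, and the edgeR fits compared diets within times by an additive term for time instead. Leaving out a replicate could not be done for the same reason.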

Other observations

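Genes that assemble or regulate CV, and the carriers that feed it, were read from lists chosen with earlier results of these data known. At ZT6, 3 of 7 assembly and regulation genes were at least 1.5-fold higher in HF.NOB than in HF (20.9% of all genes were), and the median over the 7 was 0.51 (log2). The 3 were Fmc1 (0.86), Atpif1, the inhibitor that blocks reverse running of the enzyme (0.78), and Tmem70, which helps to build the c ring (0.69). Atpaf1 and Atpaf2, the chaperones that bind beta and alpha before F1 forms, were at -0.03 and 0.15, and their longer messages have principal transcripts of 2330 and 1813 nt. After subtraction of the median of genes of similar length (shortest APPRIS transcript), 0 of 7 passed (9.66% of all genes were higher), with a median of -0.12. Atpif1 had 279, 274 and 473 at ZT6 and 278, 270 and 285 at ZT18, so 5 libraries were level.

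Of the carriers, Slc25a4, the muscle form of the ADP/ATP exchanger, had 90815, 93885 and 145431 at ZT6 and 82626, 92428 and 90705 at ZT18. Slc25a3, which brings in phosphate, had 18077, 19222 and 30180 at ZT6 and 17818, 20315 and 19568 at ZT18. Both were highest in HF.NOB at ZT6, at log2 folds of 0.63 and 0.65 against HF, which became 0.32 and 0.21 after the same subtraction. Slc25a5 stood at 0.63 and 0.02. Slc25a31 had too few reads for a fold.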
